A study of Homo sapiens with 4 samples.

Results

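Histone genes encode the proteins that wrap DNA into nucleosomes, and 82 of the 20037 protein-coding genes of the RefSeq annotation (assembly GRCh38.p14) were taken as members by their symbols. The set held 10 linker histone H1 genes, 20 H2A genes, 19 H2B genes, 18 H3 genes and 15 H4 genes. IRF3, a transcription factor best known for switching on type I interferon genes after infection, had been immunoprecipitated from fixed chromatin of MM1.S, an established line of human multiple myeloma cells that serves as a model of malignant plasma cells. The cells had received no treatment, and the series held 2 IRF3 ChIP libraries and 2 input libraries, each pair numbered 1 and 2. Each ChIP library had a peak list, which the authors had called against the input of the same number, and the inputs were used in no other way. All values therefore describe 1 cell line in 1 state, and the labels do not say whether the replicates were separate cultures.

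Most histone genes are replication-dependent. They are short, lack introns, are copied in S phase when new DNA must be packaged, and give messages that end in a stem-loop bound by SLBP instead of a poly(A) tail. They lie in clusters, of which the largest is on the short arm of chromosome 6. Variant histones such as H2A.Z, H2AX, the replication-independent H3 and some H1 forms are made throughout the cell cycle from genes outside the clusters, and germline histones are restricted to testis or oocyte. A core promoter of a replication-dependent gene typically holds a TATA box and CCAAT boxes, with an octamer in H2B promoters and an AAACACA element in H1 promoters.

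The genes were placed in 3 groups by chaining members less than 1 Mb apart on a chromosome. Only chains on chromosomes 6 and 1 were taken as clusters. H1-10 and H1-8 on chromosome 3, which also lie within 1 Mb, were counted outside clusters. The chromosome 6 cluster held 55 genes, the clusters on chromosome 1 held 14 (11 at 1q21 and 3 at 1q42), and 13 genes lay outside clusters. A gene was called when each ChIP list had a peak summit within its span plus 1 kb on either side. The strongest such peak in each list gave the gene its fold enrichment, which is the authors' own value for each peak, the pileup of ChIP fragments divided by the background expected there from the input.

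Promoters of 7 histone genes are shown because the results turn on them. H1-2, H1-4 and H3-3B were among the 4 histone genes with the strongest peaks, H3C2 and H4C5 led the clustered H3 and H4 genes, H2BC11 shares a divergent promoter with H2AC11, and H1-6 is a testis gene without a peak. The sequences run 5′ to 3′ on the strand of the gene, from 250 bases before the annotated start to 50 bases from it on, and are from RefSeq in assembly GRCh38.p14. Capitals mark every match to the promoter elements searched, which are spelled out with the promoter results. The regions are chr6:26056421-26056720 (minus strand) for H1-2, chr6:26156079-26156378 (plus) for H1-4, chr6:27132746-27133045 (minus) for H2BC11, chr6:26032050-26032349 (minus) for H3C2, chr6:26204360-26204659 (plus) for H4C5, chr17:75779730-75780029 (minus) for H3-3B and chr6:26108086-26108385 (minus) for H1-6. The first 6 were covered over all 300 bases by a peak of each list, and none of the 300 bases of H1-6 was.
H1-2: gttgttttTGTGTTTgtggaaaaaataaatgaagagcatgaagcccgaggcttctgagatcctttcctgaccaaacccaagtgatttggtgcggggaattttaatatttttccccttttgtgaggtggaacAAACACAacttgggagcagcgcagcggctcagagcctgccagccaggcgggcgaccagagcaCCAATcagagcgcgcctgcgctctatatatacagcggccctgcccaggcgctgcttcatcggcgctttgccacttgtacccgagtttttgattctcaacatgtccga
H1-4: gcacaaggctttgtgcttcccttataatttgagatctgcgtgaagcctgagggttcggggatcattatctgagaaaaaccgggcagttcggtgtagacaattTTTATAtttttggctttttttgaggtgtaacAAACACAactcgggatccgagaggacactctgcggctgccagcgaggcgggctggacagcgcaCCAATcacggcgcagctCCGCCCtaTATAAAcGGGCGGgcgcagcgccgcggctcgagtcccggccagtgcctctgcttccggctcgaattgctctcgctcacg
H2BC11: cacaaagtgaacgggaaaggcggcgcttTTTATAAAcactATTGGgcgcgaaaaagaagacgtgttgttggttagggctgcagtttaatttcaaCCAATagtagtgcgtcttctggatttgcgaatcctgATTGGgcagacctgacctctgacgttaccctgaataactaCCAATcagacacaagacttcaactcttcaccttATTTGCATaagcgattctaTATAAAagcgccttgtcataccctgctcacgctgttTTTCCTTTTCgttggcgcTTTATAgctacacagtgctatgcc
H3C2: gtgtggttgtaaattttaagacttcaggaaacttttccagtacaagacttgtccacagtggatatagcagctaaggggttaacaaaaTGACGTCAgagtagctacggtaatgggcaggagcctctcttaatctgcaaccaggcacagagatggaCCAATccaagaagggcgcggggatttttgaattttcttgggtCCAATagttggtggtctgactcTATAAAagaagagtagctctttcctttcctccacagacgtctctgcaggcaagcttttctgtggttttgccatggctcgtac
H4C5: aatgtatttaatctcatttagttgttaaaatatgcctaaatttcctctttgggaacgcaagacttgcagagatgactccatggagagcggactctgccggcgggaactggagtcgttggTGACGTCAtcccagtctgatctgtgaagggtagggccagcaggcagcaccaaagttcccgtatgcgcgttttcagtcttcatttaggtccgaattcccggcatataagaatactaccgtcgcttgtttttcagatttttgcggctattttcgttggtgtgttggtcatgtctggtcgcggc
H3-3B: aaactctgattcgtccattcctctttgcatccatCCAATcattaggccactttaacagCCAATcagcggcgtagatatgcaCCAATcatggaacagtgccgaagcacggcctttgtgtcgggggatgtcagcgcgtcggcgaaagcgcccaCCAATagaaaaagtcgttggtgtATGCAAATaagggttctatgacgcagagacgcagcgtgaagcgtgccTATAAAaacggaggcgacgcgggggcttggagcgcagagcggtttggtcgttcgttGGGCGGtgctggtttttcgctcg
H1-6: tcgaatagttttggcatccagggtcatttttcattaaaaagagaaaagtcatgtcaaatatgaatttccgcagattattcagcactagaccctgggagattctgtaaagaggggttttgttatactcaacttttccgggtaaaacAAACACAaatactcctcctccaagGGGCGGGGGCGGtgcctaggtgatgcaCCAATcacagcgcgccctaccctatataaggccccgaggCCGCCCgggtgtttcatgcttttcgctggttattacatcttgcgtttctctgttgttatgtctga

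IRF3 peaks lay at most histone genes, and they were among the strongest in the lists. Of the 82 histone genes, 58 were called (70.7%, exact 95% binomial interval 59.6 to 80.3%), beside 62.6% of all protein-coding genes (12540 of 20037). The interval of the histone genes contains that background, and nothing is read from the share alone. With no margin around the span the order turned, and 41 of 82 histone genes were called, beside 51.9% of protein-coding genes. Most histone genes have short spans, which give a summit less room. Among genes with a span under 2 kb, 46 of 67 histone genes were called (68.7%), beside 19.6% of all protein-coding genes of that length (246 of 1255). What else sets short genes apart was not tested. A further count required a summit within 1 kb of an annotated start, and genes with several starts had a window at each. Of the 74 histone genes with an annotated start 49 were called (66.2%), beside 54.5% of protein-coding genes (8628 of 15843).

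The strength of the peaks lay further from the background than their number did. The median fold enrichment at called histone genes was 14.4 in replicate 1 and 33.9 in replicate 2, beside 5.73 in replicate 1 and 8.14 in replicate 2 over all called protein-coding genes. Both of the strongest peaks ranked above the 95th percentile of their lists at 43 of the 82 histone genes (52.4%), beside 6.34% of protein-coding genes (1271). With a fold enrichment of at least 5 required in both lists, 49 of the 82 histone genes (59.8%) and 36.9% of protein-coding genes were called. The 43 genes above the 95th percentiles held 34 distinct pairs of peaks, because neighbours in a cluster can share a peak. The peaks were also long, with a median of 1532 bp in replicate 1 and 2336 bp in replicate 2, against 764.5 bp and 945.5 bp over all called protein-coding genes. The plot of fold enrichment in both replicates shows the histone genes along the upper edge of the cloud of all genes.

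**Figure D1:**
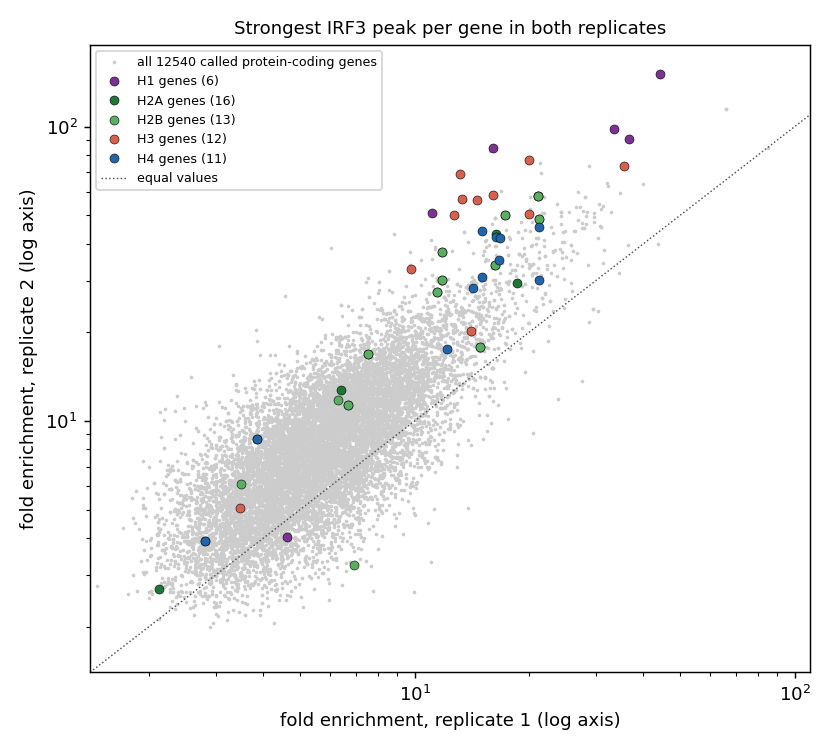
Fold enrichment of the strongest IRF3 peak of each called gene in replicate 1 (x axis, log scale) against replicate 2 (y axis, log scale), with histone genes coloured by family and the other called protein-coding genes among all 12540 in grey. H1-2 stands at the top with 44.3 in replicate 1 and 151 in replicate 2, and 56 of the 58 called histone genes lie above the dotted line of equal values.

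Replicate 2 gave the higher fold enrichment at 56 of the 58 histone genes (96.6%) and at 84.6% of all called protein-coding genes. The median ratio of replicate 2 to replicate 1 was 2.28 at histone genes, beside 1.44 over all called genes. Fold enrichment depends on antibody recovery and input depth, and the source of the higher ratio at histone genes was not tested. Across the 45 distinct pairs of peaks at histone genes the log2 fold enrichments of both replicates had a Pearson correlation of 0.90 and a Spearman correlation of 0.77, and across all 12540 called genes these were 0.77 and 0.73. The points share their libraries and depths, and several lie in the same cluster. The summits of both lists lay a median of 43.5 bp apart at histone genes and 46 bp apart over all called genes.

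The clusters were compared with the genes outside them. In the chromosome 6 cluster 41 of 55 genes were called (74.5%, exact 95% interval 60.997 to 85.3%). In the chromosome 1 clusters the count was 10 of 14 (71.4%, 41.9 to 91.6%), and outside the clusters it was 7 of 13 (53.8%, 25.1 to 80.8%). The intervals of the 3 groups overlap, and each contains the 62.6% of all protein-coding genes. Among protein-coding genes with a span under 2 kb the share was 19.6%. The intervals cover counting error only, and genes that share a peak are not independent.

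Without the germline histones, 51 of 65 clustered genes (78.5%) and 7 of 10 genes outside clusters had a summit in both lists. The background was 62.6% of all protein-coding genes. None of the germline histones was called and their list was drawn up with results known. Leaving them out could therefore only raise these shares, and nothing is read from the rise. Peak strength overlapped between the groups as well. The median fold enrichment at called genes was 14.6 in replicate 1 and 33.9 in replicate 2 for the chromosome 6 cluster. For the chromosome 1 clusters it was 6.81 and 11.3, and for the genes outside clusters it was 16.4 and 42.2. The genes outside clusters ranged from 6.41 to 36.6 in replicate 1, and those of the chromosome 6 cluster from 3.47 to 44.3, so neither group stood clear of the other. The chromosome 1 median depended on few peaks: averaged over both replicates it was 9.05, and 35.5 without the 6 genes in duplicated sequence that are described with their values further on.

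**Figure D2:**
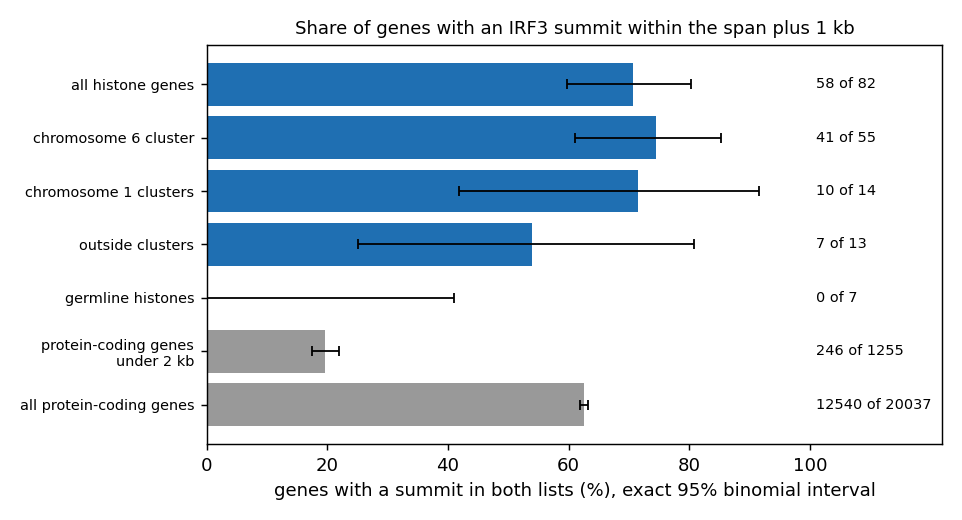
Share of genes with an IRF3 summit within the span plus 1 kb in both lists (x axis, %), for histone genes and their groups (blue) and for protein-coding genes (grey), with exact 95% binomial intervals and the counts at the right. The 3 positional groups lie between 53.8 and 74.5% with overlapping intervals, and 0 of 7 germline histones were called.

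**Figure D3:**
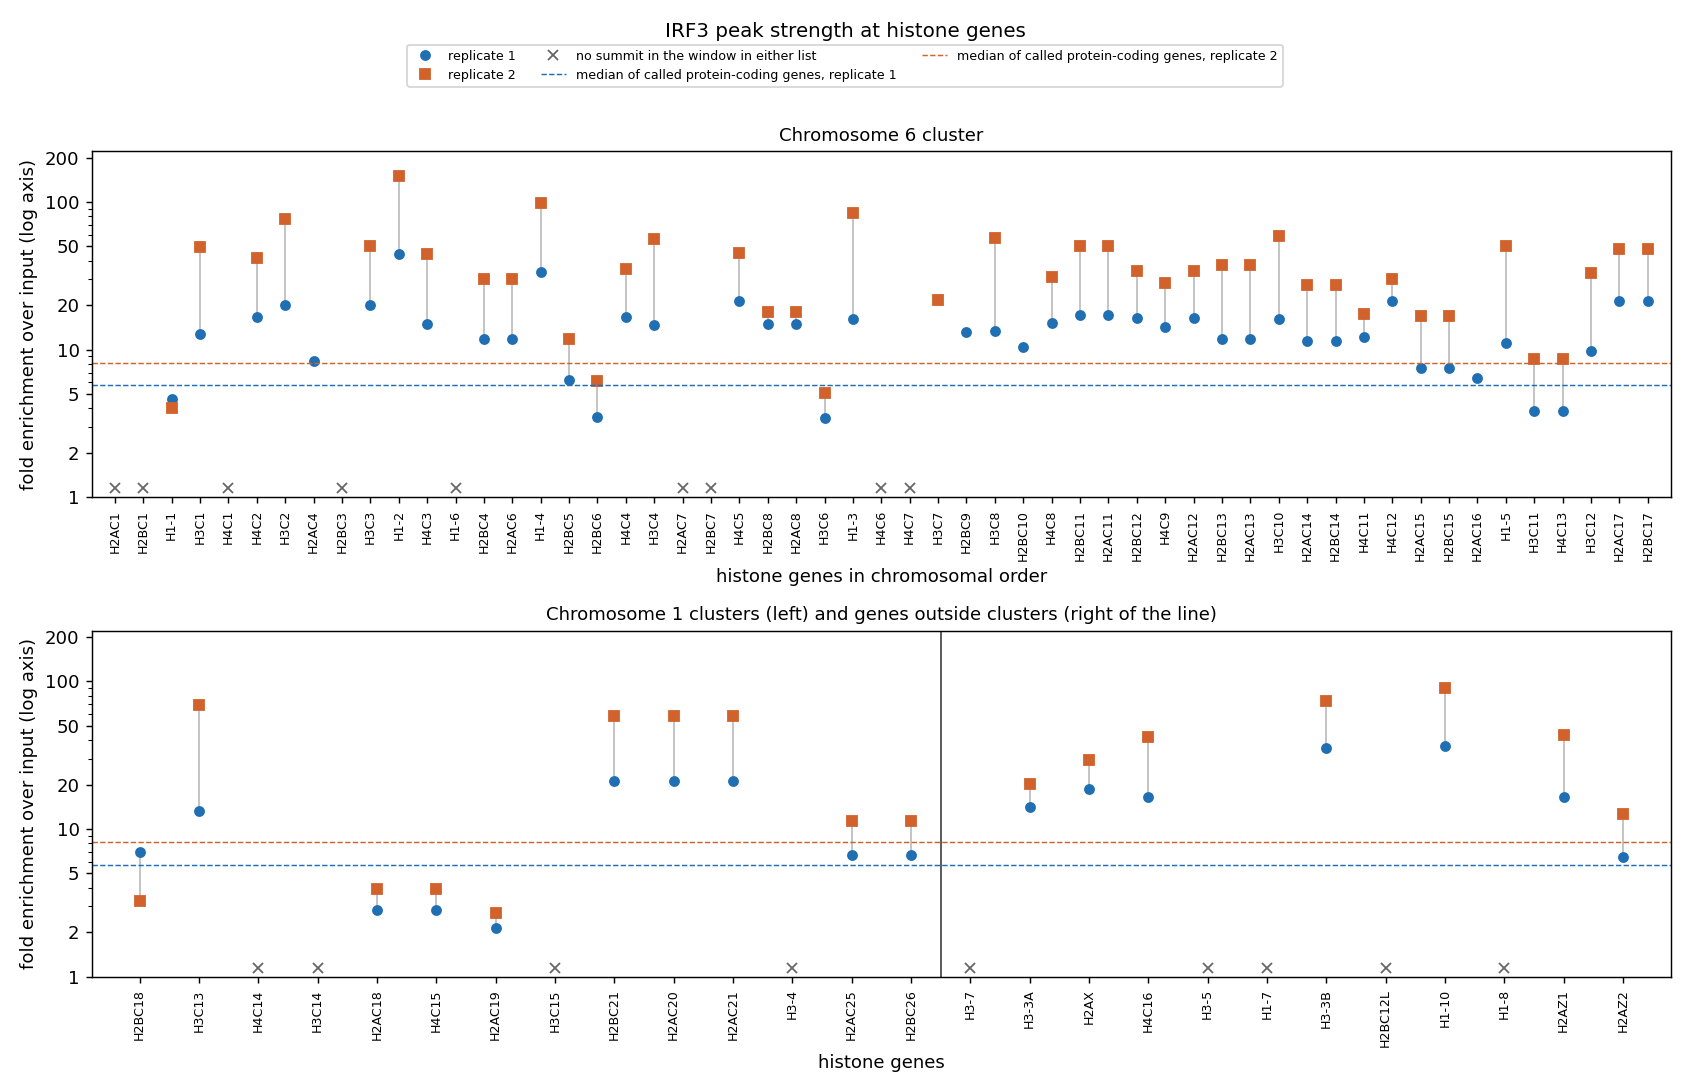
Fold enrichment of the strongest IRF3 peak at the histone genes (y axis, log scale), in chromosomal order for the chromosome 6 cluster (upper panel) and for the chromosome 1 clusters and genes outside clusters (lower panel), with circles for replicate 1, squares for replicate 2 and crosses for the 18 genes without a summit in either list. The dashed lines are the medians of all called protein-coding genes, 5.73 in replicate 1 and 8.14 in replicate 2, and the highest values are those of H1-2, H1-4 and H1-10.

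Linker histones bind the DNA that enters and leaves the nucleosome, and their genes held the strongest peaks. H1-2, a replication-dependent gene of the chromosome 6 cluster, reached a fold enrichment of 44.3 in replicate 1 and of 151 in replicate 2. Its peaks ranked 12 of 41880 in replicate 1 and 1 of 41666 in replicate 2, so no peak of the second list was stronger. The pileup, which counts the fragments over the summit, was 662 in replicate 1 and 1695 in replicate 2. On the log2 scale the mean was 6.35 ± 1.25 (SD, n = 2).

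H1-4 reached 33.4 in replicate 1 and 98.1 in replicate 2, and H1-3 reached 16.1 and 84.5. H1-5, in the distal part of the cluster, had 11.1 in replicate 1 and 50.7 in replicate 2. These 4 genes are the widely expressed replication-dependent H1 genes. H1-1, the fifth somatic H1 gene of the cluster, stood far below them with 4.63 in replicate 1 and 4.03 in replicate 2, under the medians of all called genes in both lists. It was the weakest called H1 gene, and its peaks ranked 14700 and 22840.

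Outside the clusters, H1-10 (H1X, a variant made independently of replication) had 36.6 in replicate 1 and 90.7 in replicate 2, about the level of H1-4. H1-6 and H1-7 of the testis and H1-8 of the oocyte had no summit in either list. In all, 6 of 10 H1 genes were called (60%, beside 62.6% of all protein-coding genes). Their medians of 24.7 in replicate 1 and 87.6 in replicate 2 were the highest of the 5 families.

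H3 and H4 form the core tetramer of the nucleosome. Of the H3 genes 12 of 18 were called (66.7%, beside 62.6% of all protein-coding genes). Their medians were 13.7 in replicate 1 and 53.3 in replicate 2. H3-3B, which with H3-3A encodes the replication-independent H3 variant, led them with 35.5 in replicate 1 and 73.3 in replicate 2. H3-3A encodes the same protein from chromosome 1 and had 14.1 and 20.2. Both genes lay above the 95th percentile of the lists, and H3-3B was the stronger in both.

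Among the clustered H3 genes, H3C2 had 20.01 in replicate 1 and 76.9 in replicate 2, H3C3 had 19.97 and 50.5, and H3C10 had 16.0 and 58.5. H3C13 at 1q21 had 13.2 in replicate 1 and 69.1 in replicate 2. H3C6 was the weakest called H3 gene, with 3.47 in replicate 1 and 5.06 in replicate 2. H3C7 had a summit in replicate 2 only, at 21.9, and is described with the genes that were not called.

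Of the H4 genes 11 of 15 were called (73.3%, beside 62.6% of all protein-coding genes). Their medians were 15.1 in replicate 1 and 30.9 in replicate 2. H4C5 had 21.3 in replicate 1 and 45.5 in replicate 2, and H4C12 had 21.2 and 30.0. H4C2 followed with 16.8 and 41.8, and H4C4 with 16.7 and 35.3. The single H4 gene outside the clusters, H4C16 on chromosome 12, had 16.3 in replicate 1 and 42.2 in replicate 2, near H4C2. H4C15, at 1q21, was the weakest with 2.80 in replicate 1 and 3.90 in replicate 2, from summits 17482 and 17667 bp from its start. Most H4 genes encode an identical protein, so these values compare copies of a gene and not products.

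H2A and H2B pair as dimers in the nucleosome. Called were 16 of 20 H2A genes (80%) and 13 of 19 H2B genes (68.4%), beside 62.6% of all protein-coding genes. The medians were 13.3 in replicate 1 and 29.8 in replicate 2 for H2A, and 11.8 and 27.3 for H2B. The divergent pair H2AC17 and H2BC17 shared a peak of 21.2 in replicate 1 and 48.4 in replicate 2. H2BC21, H2AC20 and H2AC21 at 1q21 shared a single peak of 21.1 in replicate 1 and 57.9 in replicate 2, which spanned 4163 bp and 4601 bp. This was the only peak shared by 3 members.

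H2AC11 and H2BC11 shared a peak of 17.2 in replicate 1 and 50.01 in replicate 2, and H2BC12 and H2AC12 shared one of 16.3 and 33.9. H2AC19 was the weakest called member of all, with 2.12 in replicate 1 and 2.68 in replicate 2, from summits 854 and 804 bp outside its span. H2BC18 ranked last of the called H2B genes by the worse of its ranks, with 6.93 in replicate 1 and 3.23 in replicate 2. Its annotated span is 29682 bp, and the summits of the 2 lists lay at different places in it, 43 bp from a start in replicate 1 and 19240 bp from it in replicate 2. In replicate 2 that start lay under the peak of H3C13, whose summit was outside the window, so both values of H2BC18 belong to different sites. H2BC18 and H1-1 were the 2 called members at which replicate 1 gave the higher value.

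The H2A variant genes H2AX, H2AZ1 and H2AZ2 outside the clusters were called. H2AX, the variant phosphorylated at DNA breaks, had 18.6 in replicate 1 and 29.5 in replicate 2. H2AZ1, which encodes H2A.Z found at promoters, had 16.4 in replicate 1 and 43.2 in replicate 2. H2AZ2 encodes the second form of H2A.Z and was weaker, with 6.41 and 12.7. The H2AX peak also lay in the window of DPAGT1, which encodes an enzyme of N-glycosylation, and the H4C16 peak in that of the gene LOC105369669. At these places a summit does not assign the peak to the histone gene.

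The germline histones had no peaks. None of the 7 genes H1-6, H1-7, H1-8, H2AC1, H2BC1, H3-4 and H3-5 had a summit in either list (0 of 7, exact 95% interval up to 40.96%). Of these genes 6 have spans under 2 kb, a length at which 19.6% of protein-coding genes were called, and that background lies inside the interval. The replication-independent variants H3-3A, H3-3B, H2AZ1, H2AZ2, H2AX and H1-10 each had a summit in both lists.

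H1-6 lies in the chromosome 6 cluster among genes with strong peaks, and its nearest summits were 3.44 kb away in replicate 1 and 3.39 kb away in replicate 2. H2AC1 and H2BC1, the testis pair that opens the cluster, had no peak nearby, and the summits nearest to H2BC1 lay 125 kb away in both lists. Expression was not measured in these libraries, so whether any of these genes was transcribed was not tested. The gene list of germline histones was drawn from textbook knowledge, with results of these data already known.

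The chromosome 6 cluster falls into blocks separated by gaps of at least 200 kb. The first block holds only H2AC1 and H2BC1, and 0 of 2 were called. In the second block 21 of 32 genes were called (65.6%), in the third 5 of 5 and in the fourth 15 of 16. The background was 62.6% of all protein-coding genes and 19.6% of those with a span under 2 kb. The medians in replicate 1 were 14.9 in the second block, 16.3 in the third and 11.4 in the fourth, and in replicate 2 they were 41.8, 33.9 and 30.0.

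Of the 24 genes that were not called, 9 lay under or beside peaks in both lists. In these, H2AC4, H2AC7, H2AC16, H2BC3, H2BC7, H2BC9, H2BC10, H3C7 and H4C1, each list had either a summit in the window or a peak that covered the whole gene with its single summit elsewhere. H2AC7 and H2BC7, for example, lay within a peak of 5185 bp in replicate 1 and 5229 bp in replicate 2 whose summit was at H3C4. H3C7 and H2BC9 lay under a peak of 3058 bp in replicate 1 with its summit on H2BC9, and under a peak of 3385 bp in replicate 2 with its summit on H3C7. The deposited lists give 1 summit for each peak, so a weaker summit within a merged peak is not seen.

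H2AC4, H2BC9, H2BC10 and H2AC16 had a summit in replicate 1 only, with fold enrichments of 8.38, 13.2, 10.4 and 6.46. Counting covered genes as well gave 67 of 82 histone genes (81.7%) and 50 of 55 in the chromosome 6 cluster (90.9%). This rule added 9 histone genes and 1 other gene among all protein-coding genes, which left the background at 62.6%. Among the 15 genes that remained uncalled were the 7 germline histones, H2BC12L, H3-7, H3C14, H3C15, H4C6, H4C7 and H4C14.

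H4C6 and H4C7 are replication-dependent genes in the second block of the chromosome 6 cluster, and their nearest summits were 5.53 and 5.57 kb away for H4C6 and 4.71 and 3.52 kb away for H4C7, in replicates 1 and 2. H2BC12L on chromosome 21 lay 46.6 kb from a summit in both lists. The genes just inside the window were H2AC19, H2AC18 and H4C13, whose farther summits lay 854, 927 and 933 bp from the span. Just outside it were H3C7, H2BC9 and H4C1, at 1073, 1100 and 1120 bp.

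At 1q21 part of the cluster exists in near-identical copies, and this touches the chromosome 1 values. The 300-base promoters of H4C14 and H4C15 were identical throughout, those of H2AC18 and H2AC19 shared a run of 299 bases and those of H3C14 and H3C15 a run of 296 bases. Each run is longer than the 74 bp tags, so a tag from it cannot be assigned to one copy. H4C14, H3C14 and H3C15 were not called. H2AC18 and H4C15 were called through a shared peak of 2.80 in replicate 1 and 3.90 in replicate 2, and H2AC19 through one of 2.12 and 2.68. The shared summits lay 17482 and 17667 bp from the annotated start of H4C15, on or beside the pseudogene H2BC19P. The summits of H2AC19 lay within the pseudogene H2BC20P. These peaks are therefore not assigned to the protein-coding genes by position.

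These 6 genes are therefore uncertain, and the part of read placement in their low values was not tested. Without them 7 of 8 genes in the chromosome 1 clusters were called, and 55 of 76 histone genes. Shorter identical runs over a tag length linked H4C11 with H4C12 (126 bases), H3-7 with H3C13 (99 bases) and H2AC13 with H2AC14 (93 bases).

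Summits lay close to the start of the gene. At the 54 called histone genes with an annotated start, the median position was 61 bp downstream in replicate 1 and 114 bp downstream in replicate 2, beside 97 and 108 bp over 10338 called protein-coding genes. H1 summits lay 72 to 180 bp into the gene in replicate 1 and 90 to 188 bp in replicate 2. H3 summits also lay downstream of the start at 10 of 10 genes in both lists, with medians of 102.5 and 127 bp. Of the H2A summits 10 of 15 lay downstream in both lists, and of the H2B summits 7 of 13 did in replicate 1 and 5 of 13 in replicate 2. Over all families 77.8% of histone summits lay downstream in replicate 1 and 75.9% in replicate 2. These shares are near the 72.1% and 72.7% of all called protein-coding genes with an annotated start.

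**Figure D4:**
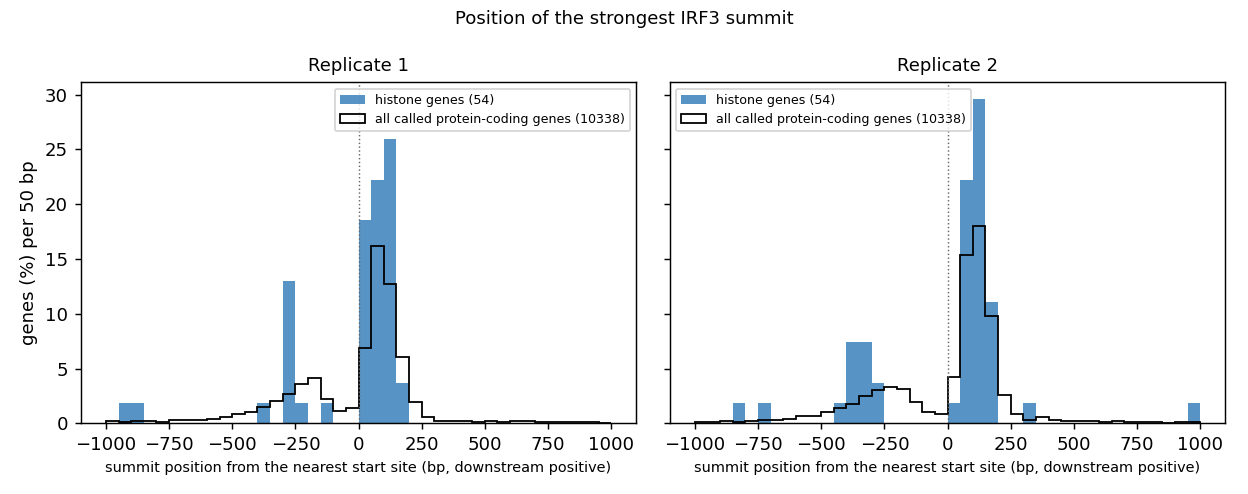
Position of the strongest IRF3 summit relative to the nearest annotated start of its gene (x axis, bp, downstream positive) as the share of genes per 50 bp (y axis, %), for the 54 called histone genes with an annotated start (filled) and 10338 called protein-coding genes (line), in replicate 1 (left) and replicate 2 (right). The histone genes peak just downstream of the start, with medians of 61 and 114 bp, and the smaller group upstream includes members of divergent pairs whose summit lies in the partner gene.

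Many upstream summits belonged to divergent pairs, in which an H2A and an H2B gene are read away from a common promoter. Among genes with an annotated start there were 11 such pairs, with starts 194 to 248 bp apart. Of these, 9 shared a peak in both lists. The exceptions were H2AC1 with H2BC1, which had no peak, and H2AC7 with H2BC7, under the merged peak at H3C4. In none of the 9 did the summit fall between the starts. It lay on the H2A side in 6 pairs in replicate 1 and 7 in replicate 2, and on the H2B side in 3 and 2.

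The side was the same in both lists in 8 of 9 pairs. H2AC17 with H2BC17 had its summit 49 bp into H2AC17 in replicate 1 and 118 bp into it in replicate 2. H2BC8 with H2AC8 had it 36 and 96 bp into H2BC8. H2BC21 with H2AC20 was the exception among the 9. Its summit lay 52 bp into H2BC21 in replicate 1 and 96 bp into H2AC20 in replicate 2. The neighbours H2BC12 and H2AC12 also shared a peak, but were not counted because H2AC12 had no annotated start. That summit lay 57 bp into H2BC12 in replicate 1. In replicate 2 it lay within H2AC12, at -364 bp from the start of H2BC12. In all, the 58 called genes held 45 distinct pairs of peaks, of which 33 served 1 member, 11 served 2 and 1 served 3. Over these 45 the median fold enrichment was 14.6 in replicate 1 and 35.3 in replicate 2, close to the values counted per gene.

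The promoters were searched on both strands for the exact letters of 8 elements, and a match is a description of the sequence and no binding site. Of 82 histone genes 74 had a promoter in the RefSeq table, and the background was 22183 protein-coding promoters of the same length. The CCAAT box (CCAAT) was in 63 histone promoters (85.1%), against 34.7% of all. It was in every promoter of the H2A, H2B and H3 families and in 3 of 13 H4 promoters. The TATA box (TATAAA) was in 49 (66.2%), against 9.47%. Both shares lay above those over all promoters.

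The octamer (ATTTGCAT), a site of the POU factors, was in 26 histone promoters (35.1%), against 1.65% of all. It was in 14 of 18 H2B and 11 of 19 H2A promoters, many of which are the same divergent sequence read from either end, and otherwise only in that of H3-3B. The H1 box (AAACACA) was in 7 of 9 H1 promoters and in 11 of all 74 (14.9%), against 4.40%. The cyclic AMP response element (TGACGTCA) was in 9 (12.2%), against 2.26%. The GC box (GGGCGG) was in 23 (31.1%), against 56.3%.

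The interferon regulatory factor element was searched as GAAA, any 2 bases (NN) and GAAA again. It was in 6 histone promoters (8.11%), against 3.17% of all. These were H2BC6, H2BC10, H2BC11, H3C10, H3C13 and H3-7. Of the 54 called genes with a promoter 4 held it, and of the 20 others 2 did, H2BC10 and H3-7. H2BC10 nevertheless lay under a peak in both lists. None of the H1 promoters held it, H1-2 and H1-4 with the strongest peaks included. In H2BC11 it lay 8 to 17 bases downstream of the start, where the printed sequence shows its reverse complement. No match says only that these letters are not in this window. The E2F site (TTTCCCGC or TTTGGCGC) was in 1 histone promoter (1.35%), that of H4C7, against 2.79%.

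**Figure D5:**
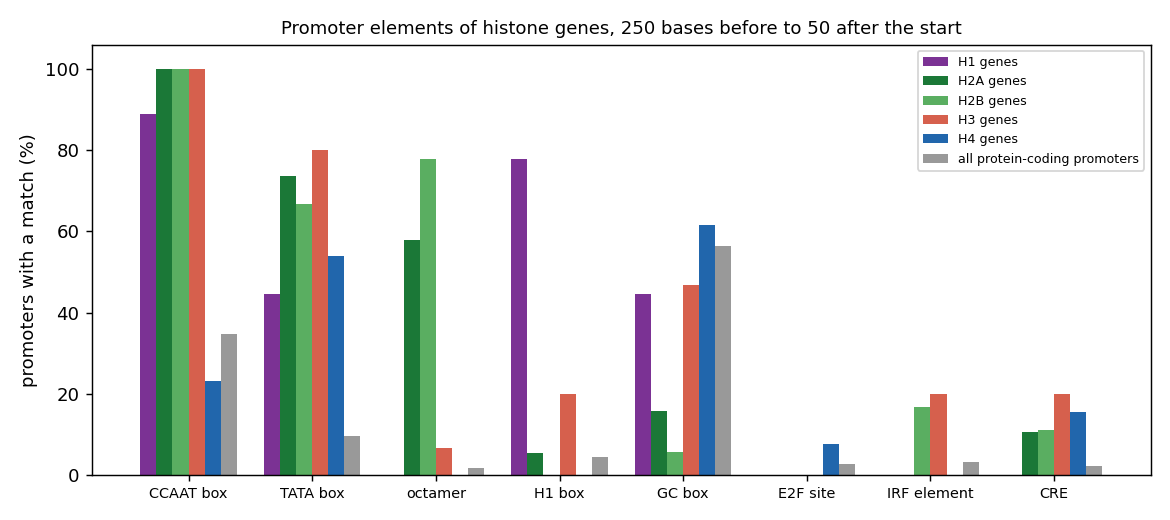
Share of RefSeq promoters that hold each searched element on either strand (y axis, %), for the 5 histone families (coloured bars) and all 22183 protein-coding promoters (grey bar, at the right of each group). CCAAT boxes are in every H2A, H2B and H3 promoter, octamers mostly in H2B (77.8%) and H2A (57.9%), the H1 box mostly in H1 (77.8%), and the IRF element in H2B (16.7%) and H3 promoters alone among the families.

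Apart from the E2F site, these elements were present in promoters of both called and uncalled histone genes. CCAAT boxes were in 45 of 54 called promoters and 18 of 20 others, and TATA boxes in 39 and 10. Octamers were in 17 called promoters and 9 others. The 20 others are not all genes without a peak. Among them H2AC4, H2AC7, H2AC16, H2BC3, H2BC7, H2BC9, H2BC10 and H3C7 lay under or beside peaks in both lists. Of the uncalled octamer promoters, only those of H2AC1 and H2BC1, a divergent pair, lay away from such peaks. H1-6, which had no peak, holds a CCAAT box 54 bases and an H1 box further upstream, as the printed sequence shows. H1-4 holds both elements too and was covered by a peak in both lists.

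Genes that make and handle histone messages were all called, but at moderate strength. The list held 16 genes of transcription and 3′ end processing of histone mRNA, and 16 of 16 had a summit in both lists, beside 65.5% of protein-coding genes with a span of 2 kb or more. Their median fold enrichment was 5.91 in replicate 1 and 9.46 in replicate 2, close to the 5.73 and 8.14 of all called genes. NPAT, the coactivator of replication-dependent histone genes, had 6.07 in replicate 1, from a summit 47780 bp from a start, and 10.0 in replicate 2, from one 86 bp from it. SLBP, which binds the stem-loop, had 9.74 and 12.9, and LSM11 of the U7 particle had 2.75 and 4.99 from summits 15943 and 128 bp from a start. For NPAT and LSM11 the 2 lists thus give different sites. POU2AF1, a B-lineage coactivator of the octamer factors, was the highest of the list in replicate 1 with 12.6, and had 12.7 in replicate 2.

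The 22 histone chaperones and exchangers were also all called, beside 65.5% of protein-coding genes with a span of 2 kb or more. Their medians were 6.79 in replicate 1 and 12.5 in replicate 2, beside 5.73 and 8.14 over all called genes. HIRA, which deposits the replication-independent H3, had 14.9 in replicate 1 and 29.8 in replicate 2. NPM1, a nucleolar chaperone, had 14.3 and 37.2, and NASP, a chaperone of H1 and H3, had 10.6 and 30.5. ATRX, a remodeller that works with DAXX, and UBN2, a partner of HIRA, were lower, at 3.83 in replicate 1 for both, with 12.5 and 5.59 in replicate 2. Both lists were chosen by function, with earlier results known.

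Of the histone genes that the symbol rule leaves out, 11 of 13 symbols were matched and 3 were called (27.3% of the 11). The background was 62.6% of all protein-coding genes and 19.6% of those with a span under 2 kb. MACROH2A1, a large H2A variant, had 6.62 in replicate 1 and 16.7 in replicate 2. H2AJ had 4.09 and 8.28, and CENPA, the H3 variant of centromeres, had 2.69 and 9.23. The other 8, among them H2AB1, H2BW1, H3Y1 and MACROH2A2, had no summit in either list.

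The counts of called marker genes do not by themselves identify a cell type. All 9 plasma cell genes were called, beside 62.6% of all protein-coding genes, with medians of 14.3 in replicate 1 and 18.0 in replicate 2. IRF4, the master regulator of plasma cells, had 20.1 and 52.4. Of the B cell genes 2 of 5 were called (PAX5 and CR2), of the T cell genes 2 of 3 (CD3E and CD2), and of the erythroid genes 0 of 3. A peak does not measure expression.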

How the data were processed

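IRF3 ChIP-seq peaks of MM1.S cells were analysed. Per the file headers, the authors called peaks with MACS2 version 2.1.2 in each ChIP library on its own, using the like-numbered input as control. The q-value cutoff was 0.05, all duplicate tags were kept and tags were 74 bp long. The submitters' processing notes name the build GRCh38, deepTools 3.3.1, MACS2 2.1.1, Picard 2.6.0, BWA 0.7.15 and SAMtools 1.2, without their roles. The placement of tags with several matches was not given in the sources used here.

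Per the file headers, the peak calls used 38568845 and 46474586 ChIP tags and 58025919 and 60348415 input tags (replicates 1 and 2), and held 41880 and 41666 peaks. The deposited fold enrichment is a ratio of pileup to local background, and the deposited pileup is a signal, the fragment height at the summit. Each list has 1 summit per peak. A spreadsheet had damaged the names of both significance columns, so the deposited −log10 p and −log10 q were identified from their values and the order MACS2 writes.

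Gene spans and promoters were from RefSeq GRCh38.p14. Protein sequences were not used here. Start sites came from the promoter table, which lacked 8 members. Calls, medians and exact (Clopper-Pearson) 95% intervals, which cover counting error only, were computed with Python 3.11.15, numpy 2.4.6, pandas 2.3.3, scipy 1.17.1 and matplotlib 3.10.9. The window search was tested on simulated data. No test between groups was made, because genes of a cluster share peaks and each condition had 2 libraries. The values of 1 member, which is included in the counts, are not reported here. Named were the other members outside clusters, the 4 strongest called genes and the weakest of each family by the worse of both ranks, genes with a summit in 1 list, those next to the window's edge and neighbours that share a peak; others were named after their values were seen. The members and lists were chosen with earlier results of these data known. Alternatives changed the window, the thresholds on fold enrichment and −log10 q, the summit rule, the assignment to the nearest gene and the replicates used.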

Additional observations from a re-analysis of the deposited data

How the results depend on the processing

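The counts and medians of all histone genes, of the chromosome 6 cluster and of the genes outside clusters kept within the limits of the comparison (1.5 times for counts, 1 SD between replicates for medians) under all 11 alternatives. Some of these could hardly fail. The SD exceeds the distance of either replicate from their mean, so medians from 1 replicate alone stay within it almost by construction. Leaving out the duplicated 1q21 genes could not change the chromosome 6 cluster or the genes outside clusters. The main count for all histone genes was 58 of 82. It was 53 with a window of 500 bp and 43 when a summit was given to its nearest gene only. With no margin around the span it was 41 of 82, which is below the background of 51.9% where the main share was above it. The −log10 q threshold of 10 left 54 histone genes (65.9%), beside 54.8% of protein-coding genes. The fold enrichment threshold of 5 left 49 histone genes (59.8%), beside 36.9% of protein-coding genes. The chromosome 1 clusters moved. Their count of 10 became 4 with no margin, 6 at a fold enrichment of at least 5 and 4 with the nearest gene only. Their median over both replicates, 9.05, became 35.5 at −log10 q of at least 10, 37.5 at a fold enrichment of at least 5, 22.3 with peak overlap in place of the summit and 35.5 without the 6 genes in duplicated sequence, because weak peaks or genes left the set or stronger overlapping peaks entered it. With 1 replicate alone the counts ran from 60 to 62 for all genes, 42 to 45 for chromosome 6, 10 to 10 for chromosome 1 and 7 to 8 outside clusters, and the medians from 13.7 to 33.4, 13.4 to 33.9, 6.81 to 11.3 and 16.4 to 35.9. The count that includes covered genes and the one without duplicated genes were added after seeing the data. No paired analysis was possible because the input libraries had no peak list here and no result comes from a test. Depth limits what an uncalled gene shows: a weak site may lie below the peak threshold.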

Other observations

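Of 88 pseudogenes with histone symbols 10 were called (11.4%). Among those with spans under 2 kb it was 9 of 82 (10.98%), beside 19.6% of protein-coding genes of that length. Of the 10 called, 6 shared a peak with a protein-coding histone gene and 4 had a peak of their own. In the chromosome 6 cluster 5 of 13 were called and 4 of these shared a neighbour's peak, at 1q21 2 of 2 were called and both shared one, and elsewhere 3 of 73 were called (4.11%). The 4 shared summits of the chromosome 6 cluster lay within the span of a protein-coding histone gene. At 1q21 the positions were the reverse. The summits shared by H2BC20P and H2AC19 lay within the pseudogene, 854 and 804 bp outside the span of H2AC19. Those shared by H2BC19P and H2AC18 lay beside the pseudogene in replicate 1 and within it in replicate 2, 927 and 742 bp outside H2AC18.

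Within the 2168 kb from the first to the last histone gene of the chromosome 6 cluster, the lists held 86 peaks in replicate 1 and 89 in replicate 2. Of these 38 and 35 had their summit at a histone gene, with median fold enrichments of 13.3 and 33.9. The 48 and 54 other peaks had medians of 3.02 and 3.86 and reached at most 11.4 and 22.3. At 1q21 all 6 peaks of each list had their summit in the window of a histone gene, the peak within the pseudogene H2BC20P included. The annotated spans of H2BC18 (29682 bp) and H4C15 (16753 bp) fill a large part of this 105 kb stretch. This count is therefore not comparable with that of chromosome 6.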
